A study of Capra hircus with 4 samples.

Results

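Fast fibre contractile genes encode the parts of the sarcomere that set the speed of fast-twitch muscle fibres, and they were read here in the longissimus dorsi, the long muscle of the loin, of Cashmere goats aged 2 months. The genes were taken by name, as the assembled transcripts (unigenes) that the authors' table pairs with one of 10 listed goat genes. Of these 10 genes, 6 were named in the table (MYH2, MYH4, MYL1, TNNT3, TPM1 and MYOZ1), by 13 of 21195 unigenes that carry one of 11208 goat gene names. The other 4, MYH1, MYLPF, TNNI2 and TNNC2, were not named there. There was 1 library labelled control and there were 3 labelled treatment, called treated 1, 2 and 3 below, from goats given ractopamine, a β2-adrenergic agonist, by mouth at 1 mg/kg in a scheme of 28 dosing days and 21 withdrawal days. The study sequenced muscle from 3 time points with controls, whereas the design text calls the 3 treated samples replicates. No label puts a library on a day, so each treated library was set against the single control library by its number.

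A muscle fibre shortens when myosin heads pull on actin filaments, and calcium starts this through the troponins and tropomyosin on those filaments. Vertebrate muscle uses different genes for the same parts in fast and slow fibres: heavy chains, which hold the motor, 2 kinds of light chain, which brace its lever arm, and troponins T, I and C. β2-agonists are known to enlarge skeletal muscle and to shift fibres towards fast types.

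The libraries held between 6675218 and 8533046 expected counts, the authors' estimates of fragments per unigene. Goat-named unigenes took 71.3% of the control counts, 50.1% in treated 1, 1.82% in treated 2 and 40.4% in treated 3. Unigenes that match a mitochondrial genome took 22.5, 38.4, 84.9 and 50.5% in the same order. Treated 2 had only 133809 goat-named counts, against 2697657 to 6086312 in the other libraries. In treated 2, unigenes that were neither goat-named nor mitochondrial held more counts than the goat-named ones. In the other libraries they held fewer, and what these unigenes are was not tested. Shares of goat-named counts are used as levels unless all counts are named. On that scale the median of 4418 goat genes with at least 100 control counts lay at log2 folds of -0.49, -0.76 and -0.55 in treated 1, 2 and 3. Markers of other cell types moved as well. The summed fibroblast markers (4 of 6 in the table) stood at 117, 185, 2354 and 274 counts per 1000000 goat-named counts in control and treated 1, 2 and 3, and the adipocyte markers (3 of 5) at 14.8, 111, 859 and 28.5. The skeletal muscle markers (5 of 6) stood between 66928 and 112795, with CKM the largest part in each library. CKM stood at 51044, 36464, 67955 and 82090 in control and treated 1, 2 and 3, and DES between 12691 and 14610. NEB stood at 7337, 2498, 493 and 2260, MB at 9677, 13353, 3288 and 15752, and ACTA1 had 130, 6, 0 and 3 counts. The immune markers (3 of 7: CD74, CD68 and PTPRC, the last at 2, 1, 0 and 0 counts) stood at 17.6, 140, 426 and 41.5, and the endothelial markers (4 of 4) between 177 and 740. The smooth muscle list (4 of 4) stood between 24831 and 55486, nearly all of it ACTA2, whose main unigene has skeletal actin as its best Swiss-Prot entry. The part of these markers in the results was not tested, and in whole muscle fewer fibres of a type and less RNA per fibre cannot be told apart.

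The sequences below show how fast and slow versions were separated in the assembly. Each pair sets a coding stretch of a fast unigene beside the matching stretch of a slow unigene from the deposited annotation, read 5′ to 3′, with capitals where their bases differ. MYH2 encodes the heavy chain of fast type 2A fibres, and its goat unigenes were compared with those named LOC102181869, whose best Swiss-Prot entries are slow and cardiac myosins. The first pair, from the motor domain, differed at 42 of 150 bases, and the second, from the rod, at 44 of 150. MYL1 encodes the fast essential light chain and MYL3 its slow counterpart, which differed at 35 of 150 bases. The last pair, the fast regulatory light chain unigene and MYL2, the slow one, differed at 29 of 150 bases. The longest run of bases shared within any of these 4 pairs was 14 bases, between the regulatory light chains. A further pair of MYH2 stretches that is not printed shared runs of up to 23 and 20 bases with the slow chain.
MYH2 motor stretch: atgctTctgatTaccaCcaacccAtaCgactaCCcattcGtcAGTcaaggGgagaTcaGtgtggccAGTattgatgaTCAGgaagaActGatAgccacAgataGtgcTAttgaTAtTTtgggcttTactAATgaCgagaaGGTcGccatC
Slow heavy chain motor stretch: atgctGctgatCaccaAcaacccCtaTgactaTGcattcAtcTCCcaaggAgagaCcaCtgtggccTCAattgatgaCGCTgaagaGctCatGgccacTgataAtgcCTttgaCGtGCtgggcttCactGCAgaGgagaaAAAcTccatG
MYH2 rod stretch: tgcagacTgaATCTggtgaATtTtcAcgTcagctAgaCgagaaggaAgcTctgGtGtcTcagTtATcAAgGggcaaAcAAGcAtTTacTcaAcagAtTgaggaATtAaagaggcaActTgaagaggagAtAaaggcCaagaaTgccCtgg
Slow heavy chain rod stretch: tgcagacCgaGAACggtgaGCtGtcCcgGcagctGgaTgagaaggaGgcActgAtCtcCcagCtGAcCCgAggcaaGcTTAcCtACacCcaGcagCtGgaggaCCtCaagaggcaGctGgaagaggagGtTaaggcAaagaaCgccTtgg
MYL1 stretch: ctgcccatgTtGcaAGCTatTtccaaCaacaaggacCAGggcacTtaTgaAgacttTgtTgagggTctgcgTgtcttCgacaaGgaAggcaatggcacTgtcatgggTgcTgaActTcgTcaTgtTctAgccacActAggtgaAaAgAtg
MYL3 stretch: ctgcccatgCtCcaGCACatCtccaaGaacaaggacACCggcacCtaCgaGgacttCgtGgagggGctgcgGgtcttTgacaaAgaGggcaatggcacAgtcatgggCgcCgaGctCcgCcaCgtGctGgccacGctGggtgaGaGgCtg
Fast regulatory light chain stretch: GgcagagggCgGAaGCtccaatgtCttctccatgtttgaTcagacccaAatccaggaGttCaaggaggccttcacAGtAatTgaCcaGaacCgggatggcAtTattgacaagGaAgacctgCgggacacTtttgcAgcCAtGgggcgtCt
MYL2 stretch: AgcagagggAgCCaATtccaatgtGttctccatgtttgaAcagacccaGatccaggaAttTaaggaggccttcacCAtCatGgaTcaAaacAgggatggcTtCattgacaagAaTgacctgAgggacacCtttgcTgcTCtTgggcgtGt

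The labels of the members held unevenly against their protein matches. MYH2 was split over 4 unigenes of 255 to 350 bases, all at 100% identity to the goat protein and all with myosin-2 as the best Swiss-Prot entry. MYL1 (2 unigenes), TPM1 (2) and MYOZ1 (1) were also paired at 100% identity, and TNNT3 (3) at 92 to 100%. MYH4, the heavy chain of the fastest type 2B fibres, rested on a single unigene of 2026 bases at 83% identity, and its best Swiss-Prot entry was myosin-7, the slow heavy chain. The MYH4 values below are therefore those of a unigene named MYH4, which held 140550 of the 301629 control counts of the 6 named genes. Sums are given with and without this unigene. For MYLPF, TNNI2 and TNNC2, 1 unigene each had the fast skeletal protein as its best Swiss-Prot entry, although the table pairs these with LOC100861163, LOC100860775 at 59% identity and TNNC1 at 71%. They are shown beside the members and are not counted among them, since they were found after the table had been read. No unigene had MYH1 or MYH4 as its best entry.

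Together the 6 named genes held a larger share of goat-named counts in treated 1 and 3 than in the control, and a smaller one in treated 2. The share was 4.96% in the control, 10.15% in treated 1, 3.87% in treated 2 and 10.98% in treated 3. The folds were 2.05 (exact 95% Clopper-Pearson interval 2.04 to 2.06), 0.780 (0.759 to 0.802) and 2.22 (2.21 to 2.23), and like all such intervals here they cover counting error only, with 1 library on each side. Treated 2 changed direction with the list. Without the unigene named MYH4 its fold was 1.198 (1.16 to 1.24), against 2.01 and 2.46 in treated 1 and 3, and with the 8 genes that have a fast Swiss-Prot entry it was 1.68 (1.65 to 1.71), against 2.23 and 2.40. Relative to all counts, mitochondrial ones included, the folds of the 6 genes were 1.44, 0.0199 and 1.26.

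**Figure D1:**
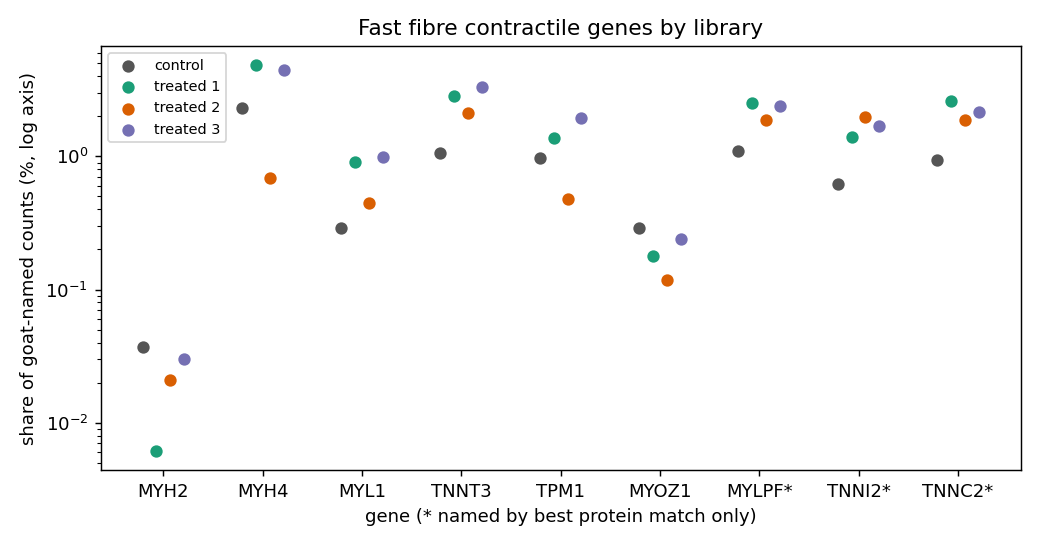
Share of goat-named counts (percent, log axis) of each fast fibre gene in the 4 libraries, 1 point per library, with genes named only by their best protein match marked by an asterisk. MYL1 and TNNT3 were above the control in all 3 treated libraries, and MYH2 was lowest in treated 1, at 0.00614%.

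By single gene, the study's limits of an x-fold under 0.6 or over 3 were applied to genes with at least 20 counts in the control or the treated library, which all 6 members had. The study's other criteria, a p-value limit, stable x-folds over its time points and signal pathways, were not applied. In treated 1, MYH2 lay under 0.6 and MYL1 over 3, where 38.8% and 4.64% of 7838 goat genes did so. In treated 2, MYH2, MYH4, TPM1 and MYOZ1 lay under 0.6 and none over 3, against 48.9% and 8.92% of 7657 goat genes. In treated 3, none lay under 0.6 and MYL1 and TNNT3 lay over 3, against 40.7% and 1.74% of 7702. No member was past the same limit in all 3 libraries, for which no share over all goat genes is given here. The members' median fold was 1.76, 0.524 and 1.97, beside 0.737, 0.623 and 0.694 over all goat genes in the same libraries. Relative to all counts, MYH2 and MYOZ1 lay under 0.6 in treated 1 and 3 and all 6 in treated 2, where 58%, 76% and 99.6% of goat genes did so.

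Of the named members, MYL1 and TNNT3 stood above the control in all 3 treated libraries. MYL1 had 17576 counts in the control, 36364 in treated 1, 600 in treated 2 and 26618 in treated 3, or 0.289, 0.911, 0.448 and 0.987% of goat-named counts. Its folds were 3.16 (3.10 to 3.21), 1.55 (1.43 to 1.68) and 3.42 (3.35 to 3.48), with the lowest in treated 2. TNNT3 encodes the fast troponin T, which ties the troponin complex to tropomyosin. Its counts were 64028, 112954, 2819 and 88913, with folds of 2.69 (2.66 to 2.72), 2.00 (1.93 to 2.08) and 3.13 (3.10 to 3.17), again with the lowest in treated 2. Against the median goat gene of each library, the folds of MYL1 came to 4.43, 2.63 and 4.99 and those of TNNT3 to 3.78, 3.39 and 4.57.

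The 3 genes named only by protein match lay in the same range. The MYLPF unigene, the regulatory light chain of fast fibres, had 66808, 99731, 2510 and 64080 counts in control and treated 1 to 3, with folds of 2.28, 1.71 and 2.16. TNNI2 encodes the inhibitory subunit of fast troponin, and its unigene had 37564, 55981, 2668 and 46015 counts, with folds of 2.27, 3.23 and 2.76. TNNC2 encodes the calcium sensor, and its unigene had 57179, 104055, 2494 and 58097 counts, with folds of 2.77, 1.98 and 2.29. All of these were above the control in every treated library. Their unigenes have 754, 861 and 757 bases. Goat genes whose longest unigene is under 1 kb had median folds of 1.31, 1.30 and 1.38, with upper quartiles of 1.955, 2.124 and 1.856. In treated 2, MYLPF and TNNC2 lay within the quartile range of those genes, and TNNI2 lay above it. In treated 1 and 3 all 3 lay above it.

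TPM1 and MYOZ1 differed from that group. TPM1 encodes α-tropomyosin, which covers the myosin sites on actin in fast fibres and also in heart. It had 59585, 55291, 639 and 52606 counts, with folds of 1.42 (1.40 to 1.43), 0.488 (0.451 to 0.527) and 1.99 (1.97 to 2.02), so treated 2 lay on the other side of the control from treated 1 and 3. MYOZ1, a Z-disc protein of fast fibres that binds calcineurin, was below the control throughout. Its counts were 17616, 7100, 158 and 6486, and its folds 0.615 (0.598 to 0.632), 0.408 (0.347 to 0.477) and 0.831 (0.807 to 0.855). Its values turned on the scale: against the median goat gene the folds were 0.862, 0.691 and 1.21.

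**Figure D2:**
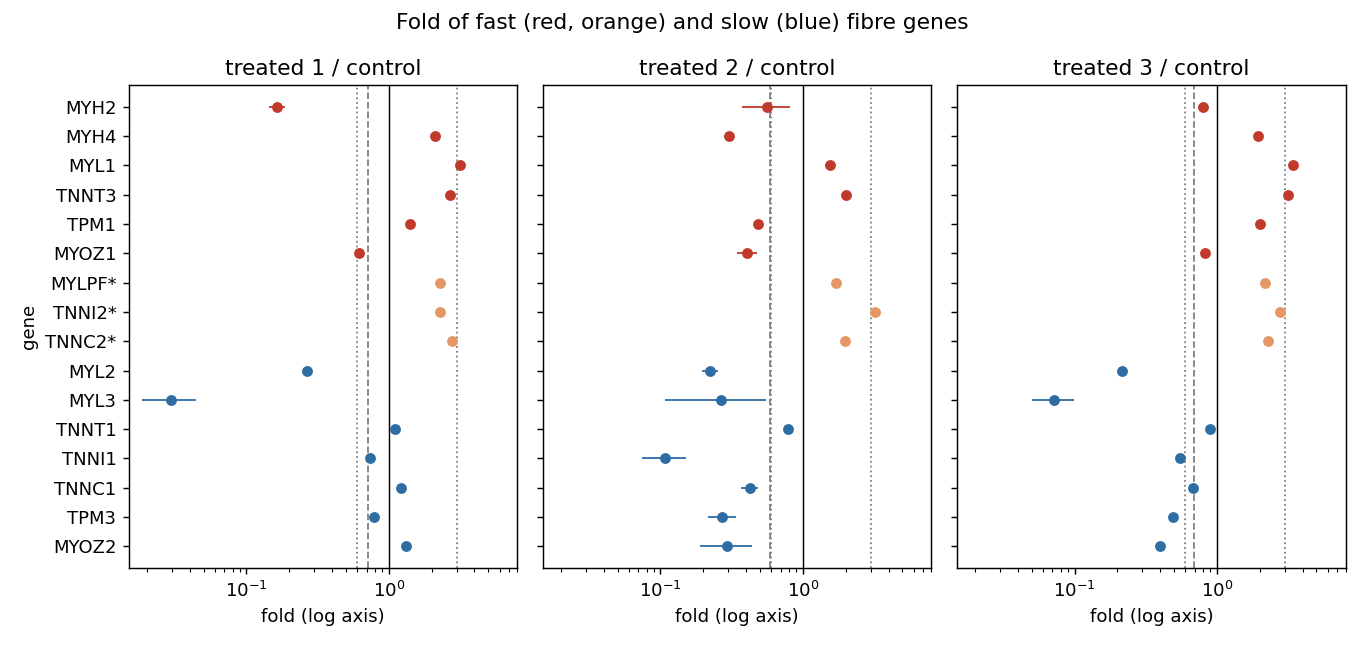
Fold of each treated library over the control (share of goat-named counts, log axis) with exact 95% counting intervals, for members by name (red), genes named by protein match (orange, asterisk) and slow fibre genes (blue). Dotted lines are the limits 0.6 and 3, the solid line is 1 and the dashed line is the median goat gene. MYL1, TNNT3, MYLPF, TNNI2 and TNNC2 lay right of 1 in all 3 panels, and MYL2 and MYL3 left of 0.6.

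The edgeR quasi-likelihood test of the 3 treated libraries against the control, in which the lone control is taken to vary like the treated ones, called 44 of 8494 goat genes higher (0.518%) and 56 lower (0.659%) at a Benjamini-Hochberg adjusted p below 0.05. None of the 6 members was among them, and none had an unadjusted p below 0.05 in edgeR with all libraries, whereas MYL1 and TNNT3 did in DESeq2. The edgeR log2 fold of MYL1 was 1.78 (adjusted p = 0.554) and that of TNNT3 1.71 (adjusted p = 0.592). Those of MYH4, TPM1, MYOZ1 and MYH2 were 0.91, 0.74, -0.36 and -0.68, with edgeR adjusted p of 0.828, 0.876, 0.945 and 0.84. The common dispersion over all goat genes corresponds to a coefficient of variation of 0.48 between libraries. This test thus did not separate the differences of the 6 named genes from the spread between libraries. That spread comes from the treated libraries alone, so with 1 control the test cannot show that the differences are no larger. It was not run on the summed counts or on the genes named by protein match. Without treated 2 the edgeR log2 folds of MYL1 and TNNT3 were 2.12 (unadjusted p = 0.0073, adjusted p = 0.173) and 1.94 (unadjusted p = 0.015, adjusted p = 0.231).

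Levels between genes were compared per kilobase of unigene, as counts per kilobase and per 1000000 goat-named counts. These rates were summed over the unigenes of a gene, so MYH2, which is split over several short ones, is raised here. In the control the named members ran from MYH4 (11398) through TNNT3 (8559), TPM1 (7567), MYL1 (2354) and MYOZ1 (1917) to MYH2 (1239). The genes named by protein match stood at 14558 for MYLPF, 12410 for TNNC2 and 7168 for TNNI2, so MYLPF and TNNC2 were above all named members and TNNI2 lay between TPM1 and MYL1. In treated 1 and 3 the order of the top members was close, with MYH4 at 23889 and TNNT3 at 23047 in treated 1, and TNNT3 at 26835 and MYH4 at 22111 in treated 3. In treated 2, TNNT3 stood at 17138 and the next named member, TPM1, at 3690, with MYL1 at 3655 and MYH4 at 3427. With 1 library each, the order of such neighbours has no replicate check.

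Of the heavy chains, MYH2 had 2274 counts in the control, 245 in treated 1, 28 in treated 2 and 810 in treated 3. Its folds were 0.164 (0.143 to 0.188), 0.560 (0.371 to 0.812) and 0.804 (0.741 to 0.871), below the control in each treated library. On the scale of the median goat gene they were 0.231, 0.949 and 1.17, so treated 3 lay above the control there. The unigene named MYH4 had 140550, 193165, 929 and 120846 counts, with folds of 2.10 (2.08 to 2.11), 0.301 (0.282 to 0.321) and 1.94 (1.925 to 1.955). Per kilobase, summed over the unigenes of each chain, MYH2 made up 9.80% of MYH2 and MYH4 in the control. In treated 1, 2 and 3 it made up 0.885, 17.7 and 4.46%. MYH2 lies in several short unigenes and MYH4 in 1, so this sum counts MYH2 once per piece and raises its share. From the longest unigene of each chain the share was 2.53% in the control and 0.0449, 2.43 and 0.387% in treated 1, 2 and 3. The summed value of treated 2 rests on 28 MYH2 counts (11.1 to 24.2%). Treated 2 lay above the control by the sum and below it by the longest unigene. With the slow heavy chain unigenes under LOC102181869 in the same per kilobase sum, the slow chain held 58.2% in the control. It held 6.65, 19.9 and 13.2% in treated 1, 2 and 3. The slow chain too is split over several unigenes and counts once per piece. That raises its share against the 1 unigene named MYH4. With the unigene named MYH4 counted as slow instead, the slow chain held 95.9, 99.17, 85.85 and 96.13%, and its folds in goat-named counts were 1.41, 0.218 and 1.34, so the direction in treated 1 and 3 turned with the name of that 1 unigene. As MYH4 best matches a slow myosin and the chains cover different stretches, these shares describe unigenes, not fibre types.

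The stretch of heavy chain that a unigene covers went with its fold. Unigenes were placed on a frame of 1967 residues joined from 2 unigenes of MYH9, a non-muscle heavy chain, by translated BLAST. The 4 MYH2 unigenes fell at residues 240 to 354, 579 to 689, 821 to 903 and 1267 to 1359. From the first to the last, their folds in treated 1 were 0.0363, 0.0909, 0.166 and 0.356. The order was the same in treated 3, at 0.290, 0.589, 0.748 and 1.53, so the unigene nearest the amino end stood lowest and that in the rod highest. In treated 2 they rested on 4, 6, 11 and 7 counts, with folds of 0.289, 0.440, 1.36 and 0.486, too few to order.

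The slow chain showed the same order in treated 1 and 3. Its 7 unigenes with over 100 counts in all, from residues 29 to 119 up to 1217 to 1362, had folds that were higher at each step along the chain, from 0.0141 to 0.209 in treated 1 and from 0.0614 to 0.347 in treated 3. The unigene named MYH4, which covers residues 1299 to 1924 and so lies nearest the carboxyl end, had the highest fold of all of them in both libraries. In treated 2 there was no such order: the 7 slow unigenes, on 1 to 58 counts each, had folds of 0.0566, 0.0286, 0.00732, 0.0354, 0.0957, 0.0569 and 0.0727, and the unigene named MYH4 stood at 0.301. The fold of MYH2 as a whole therefore depends on which stretch is counted, by 9.81 times between its first and last unigene in treated 1. What makes fold and position go together was not tested. In the edgeR fit over unigenes, the first MYH2 unigene, c2055_g1, had a log2 fold of -2.22 (unadjusted p = 0.00261, adjusted p = 0.083) and the last, c8311_g1, one of -0.04 (adjusted p = 0.994).

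**Figure D3:**
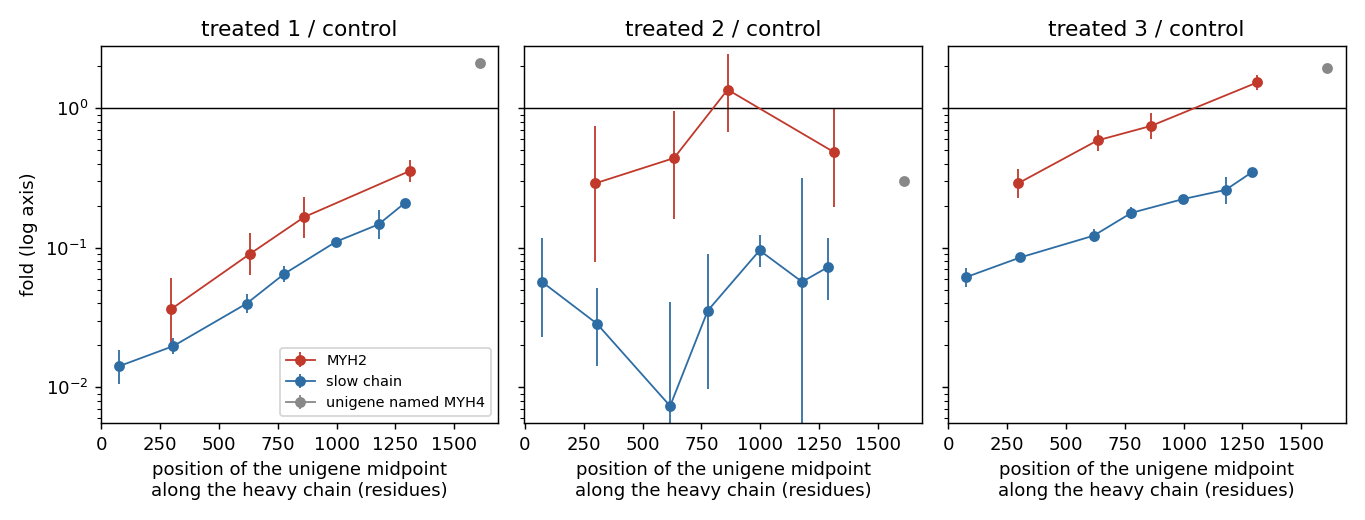
Fold over the control (log axis, with exact 95% counting intervals) of each heavy chain unigene against the midpoint of the residues it covers, for MYH2 (red), the slow chain (blue) and the unigene named MYH4 (grey). In treated 1 the MYH2 folds ran from 0.0363 at the amino side to 0.356 in the rod.

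Transcripts within a unigene moved apart in some members. The unigene named MYH4 had 3 transcripts, and the one of 848 bases took 35.3% of its counts in the control, 57.2% in treated 1, 15.8% in treated 2 and 62.7% in treated 3. Its longest, of 2026 bases, took 58.1, 34.1, 53.4 and 26.5%. In the main TNNT3 unigene, whose 2 transcripts are both of 1227 bases, the second took 40.3% in the control, 41.1% in treated 1, 70.7% in treated 2 and 43.0% in treated 3. The split was steadier in the others, with the first transcript of MYL1 at 50.6 to 55.2% and that of MYOZ1 at 50.3 to 52.5% over the 4 libraries.

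Fold also went with unigene length over all goat genes, so the members are given beside genes of the same unigene length. The median fold of 385 goat genes whose longest unigene is under 1 kb was 1.31, 1.30 and 1.38 in treated 1, 2 and 3, and that of 61 genes over 8 kb was 0.497, 0.315 and 0.466. The class of 1 to 2 kb, with MYL1, TPM1 and MYOZ1, had medians of 0.811, 0.740 and 0.850. Against these, MYL1 stood 3.89, 2.10 and 4.02 times higher and MYOZ1 at 0.758, 0.552 and 0.978 times. TPM1 stood at 1.75, 0.660 and 2.34 times. TNNT3, classed at 2 to 4 kb by a minor unigene of 2556 bases that holds 221 control counts, stood 4.16, 3.92 and 5.03 times above the median of its class. By count-weighted mean length TNNT3 falls at 1 to 2 kb. The medians there were 0.806, 0.729 and 0.835, against 0.647, 0.511 and 0.623 in the class used, so its ratios would be smaller. The unigene named MYH4, at 2 to 4 kb, stood at 3.24, 0.588 and 3.11 times its class median. It covers residues 1299 to 1924 of a frame of 1967, so it is a piece of a longer transcript. These ratios therefore do not set it against transcripts of its full length. The MYH2 unigenes are short pieces of a long transcript, and at 0.126, 0.431 and 0.584 times the median of the class under 1 kb they are not compared with full transcripts of that length.

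**Figure D4:**
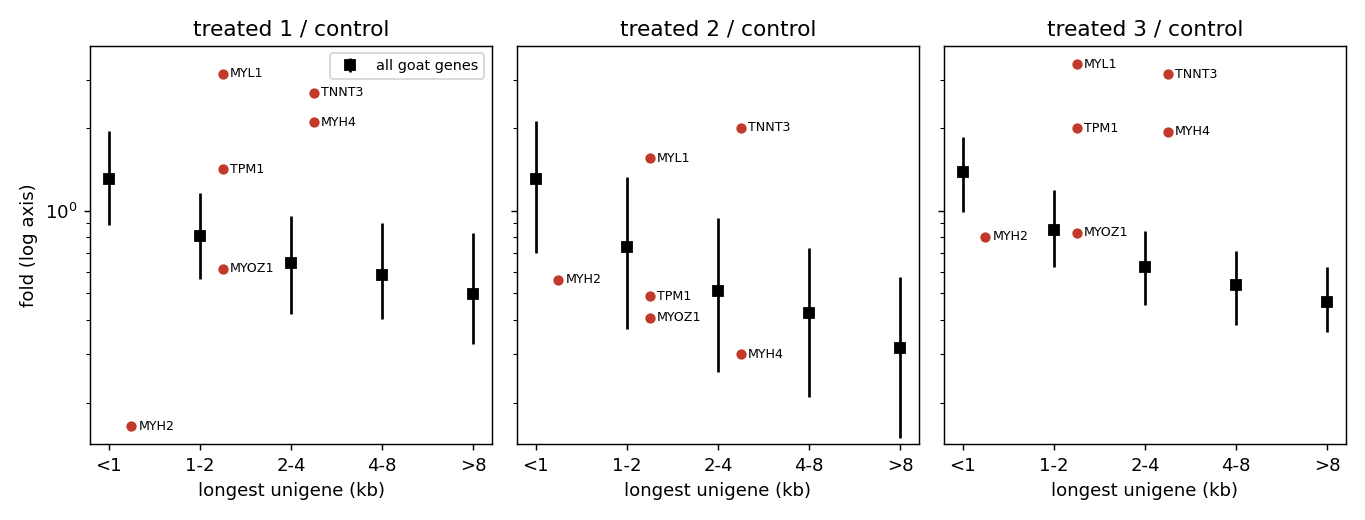
Fold over the control (log axis) of all goat genes by length of the longest unigene (squares, median; bars, 25 to 75% quantiles) and of the 6 named members (red). MYL1 and TNNT3 lay above the quartile range of their class in all 3 panels. MYH2 and MYH4 are placed by pieces of longer transcripts.

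Slow fibre genes give the other side of each fast part. Of 8 listed, 7 were named in the table, all but the slow heavy chain MYH7. Of these 7, 2, 5 and 5 lay under 0.6 in treated 1, 2 and 3, with none over 3. Over all goat genes 38.8, 48.9 and 40.7% did so. The medians of the slow genes were 0.782, 0.271 and 0.493, beside 0.737, 0.623 and 0.694, so in treated 1 the 7 named slow genes lay near the background. The slow heavy chain unigenes under LOC102181869, outside this list, had summed folds of 0.0869, 0.0613 and 0.185. With the unigene named MYH4 added to them the folds were 1.41, 0.218 and 1.34. MYL2 had 50534, 8799, 247 and 4848 counts and folds of 0.266, 0.222 and 0.216. MYL3 had 1193, 23, 7 and 38 counts and folds of 0.0294, 0.267 and 0.0719. Both slow light chains were thus low in each treated library. TNNT1, the slow troponin T, stood at 1.11, 0.792 and 0.892, TNNI1, the slow troponin I, at 0.742, 0.108 and 0.554, and TPM3, the slow tropomyosin, at 0.782, 0.271 and 0.493. MYOZ2 stood at 1.32, 0.295 and 0.400. As named, TNNC1 stood at 2.33, 1.54 and 1.83, but 57179 of its 79769 control counts come from the unigene with a TNNC2 match, and without it the folds were 1.21, 0.425 and 0.674.

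A ratio of a fast to a slow count within 1 library does not depend on the other RNA in it. For 7 such pairs by best Swiss-Prot entry, the ratio was above the control in 6 pairs in treated 1 and in 7 in treated 2 and in treated 3. The median change over the pairs was 2.42, 4.67 and 4.04 times. The ratio of MYL1 to MYL3 was 14.7 in the control and 1580, 85.6 and 700 in treated 1, 2 and 3, although it rests on 23, 7 and 38 MYL3 counts. The ratio of MYLPF to MYL2 was 1.32, 11.3, 10.2 and 13.2 in the 4 libraries. The 3 treated libraries lay close together there and apart from the control. The ratio of TNNT3 to TNNT1 was 1.67, 4.05, 4.22 and 5.88, and that of TNNI2 to TNNI1 was 2.61, 8.0, 78.5 and 13.0. The exception among these pairs was MYOZ1 to MYOZ2, at 4.76, 2.21, 6.58 and 9.89, where treated 1 lay below the control at 0.465 of its ratio (95% Woolf interval 0.440 to 0.491) and treated 2 at 1.38 (0.899 to 2.13). The heavy chains are not among the 7 pairs, since their ratio turned on the unigene named MYH4. With that unigene counted as slow, after its best Swiss-Prot entry, the ratio of MYH2 to the slow heavy chain was 0.117 of the control ratio in treated 1 (95% Woolf interval 0.102 to 0.133), 2.56 in treated 2 (1.76 to 3.74) and 0.601 in treated 3 (0.555 to 0.651). With that unigene left out, it was 1.89, 9.14 and 4.35 times the control ratio. Counted the first way, treated 1 and 3 lay below the control, unlike in most of the 7 pairs. All these ratios share the same control library.

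**Figure D5:**
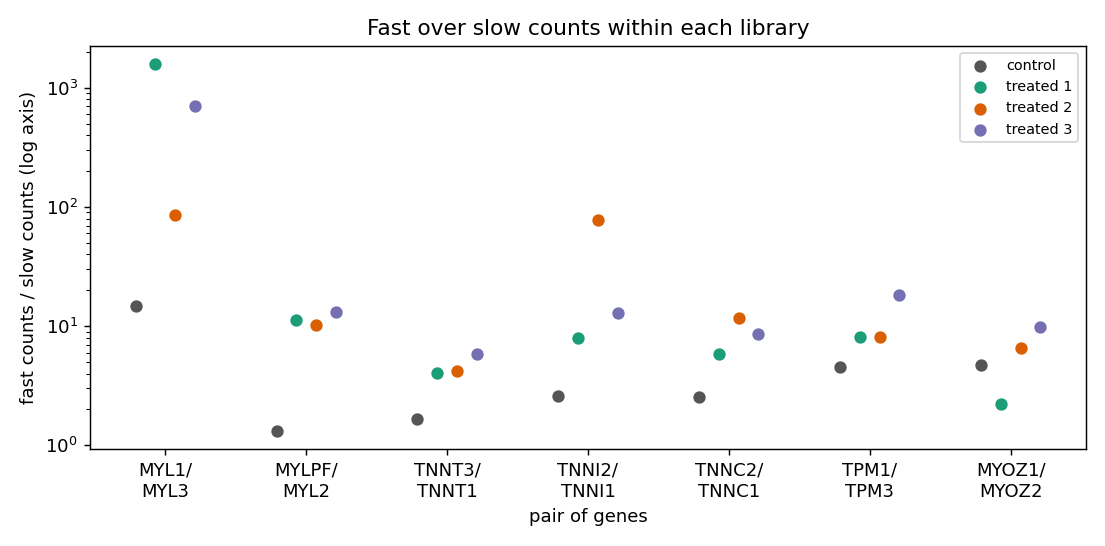
Ratio of fast to slow counts (log axis) for 7 pairs of genes in each of the 4 libraries, 1 point per library. The treated libraries lay above the control in every pair except MYOZ1 over MYOZ2 in treated 1, at 2.21 against 4.76.

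Other genes of fast fibres lay mostly near or below the control, and above the median goat gene in treated 1 and 3. Of 9 listed, 8 were named. Those with at least 20 counts numbered 8, 7 and 7 in treated 1, 2 and 3, with 1, 6 and 1 under 0.6, where 38.8, 48.9 and 40.7% of all goat genes were. Their medians were 0.919, 0.376 and 0.955, beside 0.737, 0.623 and 0.694 over all goat genes. ACTN3, the fast α-actinin of the Z-disc, had folds of 0.842, 0.349 and 0.955, and ATP2A1, the fast calcium pump, 0.696, 0.376 and 0.974. MYBPC2, the fast myosin-binding protein C, had 0.473, 0.236 and 0.864. CASQ1, which stores calcium, had 0.938, 0.536 and 1.43, MYLK2, the light chain kinase, 1.14, 0.401 and 0.518, TMOD4, which caps thin filaments, 1.17, 0.818 and 1.79, and MYOZ3 0.900, 0.145 and 0.812. PVALB, a calcium buffer of fast fibres, was at 0 counts in the control and at 25, 1 and 5 in treated 1, 2 and 3, so it passed over 3 in treated 1 only because the control had none. Of these genes with over 500 control counts, none lay over 3 in any library.

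Sarcomere genes listed as shared by both fibre types lay at medians of 0.819, 0.228 and 0.412 over 22 of 23 listed genes, with 7, 19 and 15 under 0.6 and 2, 0 and 0 over 3. Whether each is shared was not checked in these data. ACTA1 is among them at 130, 6, 0 and 3 counts, while the main ACTA2 unigene matches skeletal actin. Of 16 listed regulators of fibre type, 14 were named and 11 had 20 counts, and 6, 7 and 6 of them lay under 0.6 with none over 3. The shares under 0.6 over all goat genes, 38.8, 48.9 and 40.7%, apply to both lists, and the shared sarcomere count in treated 1 was below that share. The developmental and cardiac list was close to absent, with 2 of 8 named and none reaching 20 counts.

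The 5 goat genes outside these lists whose 3 log2 folds lay nearest to the members' median (0.78, -0.94 and 0.98), among 1345 genes with at least 500 control counts and a count in every library, were APOBEC2, NDUFB8, LOC102181207, BANF1 and PPP1R3A. Their Euclidean distances on the log2 scale ran from 0.30 to 0.59 over the 3 libraries. APOBEC2, the nearest, had 1678, 2119, 23 and 1445 counts. In treated 2 the 5 genes had only 8 to 23 counts each, so these distances carry a wide counting error. MYL1 and TNNT3, above the control in treated 2, did not share the members' median there.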

How the data were processed

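Total RNA of goat longissimus dorsi was sequenced by the authors as 1 control and 3 treated libraries, assembled into 59774 unigenes and counted per unigene and transcript. The deposited values are expected counts (whole numbers here), TPM, FPKM and the percent of each unigene given to a transcript, and the authors' pairing table gives the percent identity of each unigene to a goat protein. FastQC 0.10.1 is in the submitters' processing notes, and the assembler, the counter and the goat annotation are not given in the sources used here. Expected counts were summed per goat gene name. The 25 paired unigenes with no gene name, nearly all mitochondrial, held 22.2 to 84.3% of a library's counts and were left out of the goat-named total. Folds are ratios of shares with exact Clopper-Pearson 95% intervals, and ratios of fast to slow counts have Woolf intervals. The labelled groups were tested with edgeR 4.0.16 (TMM, filterByExpr, robust quasi-likelihood, 2-sided), with DESeq2 1.42.0 as an alternative, in R 4.3.3. The scripts were tested on simulated data, edgeR with 8-fold changes at dispersions of 0.02 and 0.1. The common dispersion of these data was 0.23, so that run does not show how well edgeR finds smaller folds here. Heavy chain unigenes were placed with BLAST+ (e-value up to 0.001), and stretches were aligned with Biopython. The named genes were every member, slow and other fast genes with over 500 control counts, and the 5 nearest genes. Members and lists were chosen with earlier results of these data known. Nothing states whether each library is 1 animal, so p-values measure only the spread between these libraries. Alternatives without MYH4, with its unigene counted as slow, by Swiss-Prot entry and without TFCP2L1 were chosen after seeing the data.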

Additional observations from a re-analysis of the deposited data

How the results depend on the processing

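The limits are those of 1 control library and of treated 2, whose 133809 goat-named counts leave 5 of the 6 members with 28 to 929 counts. No paired analysis was possible because the single control shares at most 1 number with the treated libraries.

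The summed fold of the 6 members stayed above 1 in treated 1 and 3 under each of 10 alternatives, while treated 2 lay on either side of 1. In treated 1, 2 and 3 it was 1.439, 0.01994 and 1.256 relative to all counts, 2.874, 1.322 and 3.235 with the median goat gene at 1, and 2.116, 0.8158 and 2.267 with identity of at least 80%. It was 1.917, 0.6942 and 2.147 from TPM and 2.033, 1.208 and 2.481 without the heavy chains. Added after seeing the data, it was 2.007, 1.198 and 2.457 without MYH4, 2.23, 1.68 and 2.403 by Swiss-Prot entry, and 0.9197 in treated 2 without TFCP2L1, which holds 15.3% of that library's goat-named counts. The isoform table and the removal of mitochondrial unigenes moved none of these beyond the interval.

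Relative to all counts, members under 0.6 numbered 2 in treated 1 and 2 in treated 3, and members over 3 numbered 0 in both. With the median goat gene at 1, 1 lay under 0.6 in treated 2, and 2 in treated 1 and 1 in treated 2 lay over 3. With limits of 0.5 and 2, 3 in treated 1 and 1 in treated 2 lay over the upper one. Past the lower limit in all 3 libraries were 2 members relative to all counts, and past the upper one 1 with either the median scaling or the limits of 0.5 and 2. Relative to all counts, 58, 99.6 and 76% of goat genes lay under 0.6 in treated 1, 2 and 3. The share of goat genes past a limit in all 3 libraries is not given here, so these member counts have no background. Leaving out each treated library gave 0 to 1 for either limit, the 1 being MYH2 without treated 3 and MYL1 without treated 2.

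Over all goat genes, those over 3 numbered 193, 5 and 39 relative to all counts against 364, 683 and 134, and 712, 1404 and 362 with the median at 1. They numbered 806, 1192 and 380 with limits of 0.5 and 2, 195, 221 and 49 with at least 100 counts, and 862, 3522 and 547 with no filter. Those under 0.6 numbered 3045, 3747 and 3133, against 1725, 2243 and 1766 with at least 100 counts. In treated 2 and 3 they were 7623 and 5855 relative to all counts, and with the median at 1 they were 1868 in treated 1 and 1577 in treated 3.

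The MYH2 share of MYH2 and MYH4 in control and treated 1 to 3 was 1.592, 0.1267, 2.926 and 0.6658% from counts and 2.529, 0.04493, 2.432 and 0.3865% from the longest unigene of each. On the scale summed per kilobase over unigenes, the slow share of the heavy chains was 95.9, 99.17, 85.85 and 96.13% with the unigene named MYH4 counted as slow. Without that unigene it was 93.43, 88.95, 58.47 and 77.27%, and both were added after seeing the data. By edgeR, 16 goat genes were higher and 137 lower with library sizes only, against 44 and 56, and 119 unigenes were lower. DESeq2 called 2 higher and 0 lower, with 418 at an unadjusted p below 0.05. Leaving out each treated library in turn, edgeR called 0 to 6 higher and 0 to 37 lower, with none of either without treated 1, where 469 had an unadjusted p below 0.05. No member was called in any of these fits, with adjusted p from 0.173 to 1 over genes and from 0.083 over unigenes. The cause of these shifts was not tested.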
